A study of Mus musculus with 8 samples.

Results

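The genes described here are 35 immediate early and MAPK feedback genes of the mouse, measured in MLL-AF9 transformed bone marrow cells with floxed Runx1 and Cbfb. They are a list of names, and no threshold on their values was part of the rule. The list was chosen with earlier results of these data known, so its shares beside all genes are descriptive. All 35 had a probe set annotated to a single gene symbol, and the brightest such probe set stood for each gene, out of 19938 genes measured in this way. Their levels are deposited log2 values, and a log2 difference of 1 is a doubling.

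Immediate early genes are transcribed within minutes of a growth factor or cytokine signal, without new protein synthesis. The signal runs through the MAP kinase cascades to factors already bound at their promoters, such as SRF with its ETS partners and CREB. Many of the products are transcription factors (FOS, JUN, EGR, KLF), and others end the response, by dephosphorylating MAP kinases (DUSP), by damping the pathway upstream of ERK (Sprouty and Spred) or by speeding the decay of early transcripts (ZFP36). In myeloid progenitors these genes respond to cytokines, and several take part in the choice between growth and differentiation.

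The cells were c-Kit+ marrow cells of Runx1/Cbfb double floxed mice, transduced with MLL-AF9, the fusion oncogene of a form of acute myeloid leukaemia, and with CreERT2, whose Cre activity depends on 4-hydroxytamoxifen (4OHT). They were replated serially in methylcellulose with cytokines. Cultures labelled Runx1Cbfb-KO received 1 µM 4OHT and cultures labelled Control received ethanol, both for 24 h, with 4 arrays in each group from 2 biological replicates of each of 2 clones. Both groups carried the floxed alleles, MLL-AF9 and CreERT2. All 8 cultures analysed here carried floxed alleles, so effects of 4OHT and of Cre cannot be told apart from those of the deletion. Each clone is a single clone, and whether replicate numbers mark separate experiments is not stated. A set below means the Runx1Cbfb-KO and the Control array that share a clone and a replicate number.

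The promoters of 27 of the 35 genes were in the RefSeq table used here (GRCm38.p6), as windows from 250 bases before to 50 after the start site. The following belong to 4 genes called between the clones in both groups below. Dusp5 and Zfp36 have a CArG box in the window. Fos and Klf6, which differed in opposite directions, have none within it. Sequence further from the start site was not searched, so a CArG box there would be missed. Both strands were searched, and capitals mark the CArG box, the sequence bound by SRF.
Dusp5 (chr19:53528895-53529194, plus strand)
Dusp5: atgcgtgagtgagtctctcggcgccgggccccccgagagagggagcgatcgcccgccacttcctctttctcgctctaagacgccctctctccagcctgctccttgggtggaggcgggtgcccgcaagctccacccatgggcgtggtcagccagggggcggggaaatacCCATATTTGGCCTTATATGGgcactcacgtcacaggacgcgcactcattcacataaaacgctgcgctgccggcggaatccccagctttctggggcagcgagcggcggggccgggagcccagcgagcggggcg
Zfp36 (chr7:28379179-28379478, minus strand)
Zfp36: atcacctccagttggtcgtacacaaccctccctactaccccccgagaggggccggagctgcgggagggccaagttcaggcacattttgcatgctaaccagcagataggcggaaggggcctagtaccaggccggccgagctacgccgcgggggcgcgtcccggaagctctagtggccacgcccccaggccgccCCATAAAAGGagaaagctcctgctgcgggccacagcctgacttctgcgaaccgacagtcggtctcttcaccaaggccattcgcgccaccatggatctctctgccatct
Fos (chr12:85473640-85473939, plus strand)
Fos: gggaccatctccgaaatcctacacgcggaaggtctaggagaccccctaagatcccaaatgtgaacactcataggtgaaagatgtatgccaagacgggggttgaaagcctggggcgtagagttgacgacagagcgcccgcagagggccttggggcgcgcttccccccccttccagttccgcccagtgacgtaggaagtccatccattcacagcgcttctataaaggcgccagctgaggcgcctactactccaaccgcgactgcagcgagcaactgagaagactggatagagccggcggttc
Klf6 (chr13:5861239-5861538, plus strand)
Klf6: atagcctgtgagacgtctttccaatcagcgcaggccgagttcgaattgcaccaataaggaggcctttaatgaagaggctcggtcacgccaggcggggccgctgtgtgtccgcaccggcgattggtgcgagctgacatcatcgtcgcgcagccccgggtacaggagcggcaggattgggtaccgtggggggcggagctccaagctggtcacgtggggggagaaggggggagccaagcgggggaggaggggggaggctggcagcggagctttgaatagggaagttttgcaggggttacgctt
Dusp5 held a pair of adjacent CArG boxes, starting 82 and 72 bases before the start site, and Zfp36 held 1, starting 58 bases before it. The Fos and Klf6 windows held no match to any motif searched, and neither did those of Etv5, which was also called in both groups. With Egr2, 3 of 27 members (11.1%) held a CArG box, against 1.81% of the 27025 genes in the table. The cAMP response element TGACGTCA was in the windows of Btg2, Dusp1 and Maff (11.1%, against 2.03% of all genes). TGANTCA, a loose form of the AP-1 site with any base in the middle, was in the window of Zfp36l1 as TGATTCA (3.7%, against 8.97%). The RUNX site TGTGGT was in the windows of 0 of 27 members, against 18.9% of all genes. CCGGAAGT, a sequence of ETS factors, was in the windows of 0 of 27 members, against 4.31%. These matches describe letters in a short window and not bound sites.

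Array medians ran from 6.26 to 6.39, and arrays correlated at 0.991 to 0.997 within a clone and at 0.977 to 0.991 between clones. Runx1 signal was higher in the arrays labelled Runx1Cbfb-KO, at 10.82 ± 0.28, than in Control arrays, at 10.30 ± 0.30 (SD, n = 4 each), a difference of 0.52 ± 0.04 (SE) with adjusted p = 1.64e-05 in limma. Cbfb signal was 9.75 ± 0.13 in arrays labelled Runx1Cbfb-KO and 9.93 ± 0.08 in Control arrays (limma adjusted p = 0.128). Whole-transcript probes can lie outside deleted exons, so neither value checks the deletion, and the groups are called by their labels throughout.

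The first question was which of these genes changed after 4OHT. Of the 35 genes, 1 passed the test and 34 did not. Cd69, a membrane receptor induced early after activation of leukocytes, was lower in cultures labelled Runx1Cbfb-KO. It was 10.24 and 10.20 in clone 1 and 10.73 and 10.76 in clone 2 in cultures labelled Runx1Cbfb-KO, against 10.48 and 10.60 in clone 1 and 11.29 and 11.38 in clone 2 in Control cultures. Within each clone both Runx1Cbfb-KO cultures lay below both Control cultures, while across clones the groups overlapped. Cd69 fell by 0.45 ± 0.05 (SE, 4 sets; 95% interval -0.57 to -0.34), a 1.37-fold reduction, with limma adjusted p = 0.00129. Fitted by replicate number, the difference was -0.39 over the number 1 sets and -0.51 over the number 2 sets. The limma adjusted p of Cd69 was 1 without any block, 0.024 with clone as the only covariate, 0.0977 without a variance trend and 0.212 with every probe set tested.

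The share of members called, 2.86%, stood beside 0.953% of all genes in either direction, and the share called lower, again 2.86%, beside 0.471%. With an unadjusted p under 0.05 there were 8 members (22.9%), against 6.47% of all genes. Of these 8, Dusp2 was above 0 and Fos, Fosl1, Fosl2, Mafk, Klf6, Zfp36l1 and Cd69 were below 0. The median difference was -0.014 over the members and 0 over all genes, and the median absolute difference was 0.09 over the members and 0.04 over all genes. In 14 of 35 members (40.0%) all 4 sets differed in the same direction, 6 above and 8 below 0, against 13.1% of all genes. Members and all genes also differed in level. A mean of 6 or more was held by 31 of 35 members and by 12230 of 19938 genes. With the rest left out, 1 of 31 members and 195 of 12230 genes were called in limma. Shares here and below were not compared at matched level, so the part of level in them was not tested.

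Among the AP-1 genes, whose products pair to form the AP-1 factor, no FOS family member was called. Fos itself was 6.22 and 6.22 in clone 1 and 6.93 and 6.87 in clone 2 in cultures labelled Runx1Cbfb-KO, against 6.24 and 6.38 in clone 1 and 7.31 and 7.28 in clone 2 in Control cultures. Its difference was -0.25 ± 0.09 (limma adjusted p = 0.468), and the per-set values were -0.02 and -0.17 in clone 1 and -0.39 and -0.41 in clone 2. All 4 sets of Fos lay below 0, but the clone 1 replicate 1 set lay close to it. Fosl1, a FOS relative without the strong activation domain, had a difference of -0.25 ± 0.09 (limma adjusted p = 0.377), with per-set values of -0.51 and -0.30 in clone 1 and -0.17 and -0.04 in clone 2. Fosl2, which encodes FRA2, had a difference of -0.31 ± 0.08 (limma adjusted p = 0.162), with per-set values between -0.45 and -0.01. The clone 2 replicate 2 set, at -0.01, lay apart from the other 3 sets of Fosl2. Without clone 2 replicate 2 the difference of Fosl2 was -0.41 and passed the test (limma adjusted p = 0.00179), as did Fosl1 at -0.33 (limma adjusted p = 0.0456). The set left out was the nearest to 0 for both genes, and 418 of all genes were called without it, against 190 with all sets. Over 17 alternatives Fosl2 was called in 3 and Fosl1 in 1. Fosb had a difference of -0.05 ± 0.08, with per-set values of -0.13 and 0.06 in clone 1 and 0.01 and -0.16 in clone 2, on both sides of 0.

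No JUN gene was called. Jun, the main partner of FOS, had a difference of 0.10 ± 0.09 and per-set values of 0.22 and 0.33 in clone 1 and 0.12 and -0.28 in clone 2, so its sets differed in direction. Junb and Jund had per-set values between -0.05 and 0.19, on both sides of 0. Among the small MAF genes, whose products lack an activation domain, Mafk was 8.09 and 8.09 in clone 1 and 7.92 and 7.93 in clone 2 in cultures labelled Runx1Cbfb-KO, against 8.17 and 8.11 in clone 1 and 8.21 and 8.29 in clone 2 in Control cultures. The highest Runx1Cbfb-KO value of Mafk, 8.09, lay just below the lowest Control value, 8.11, and such gaps were not counted over all genes. The Mafk difference of -0.19 ± 0.07 was not called (limma adjusted p = 0.577). Maff had 4 of 4 sets above 0, between 0.02 and 0.18.

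The EGR and NR4A genes encode zinc finger factors and orphan nuclear receptors of the early response. Egr1 had a difference of 0.14 ± 0.10, and its per-set values were 0.00 and -0.02 in clone 1 and 0.08 and 0.50 in clone 2, so that the clone 2 replicate 2 set stood apart. Egr2 had 4 of 4 sets above 0 (0.02 to 0.15) and Egr3 had 3 of 4. Nr4a1 and Nr4a2 had per-set values between -0.21 and 0.17. Among the KLF genes, Klf6, a zinc finger factor that responds early to many stimuli, was 7.84 and 7.41 in clone 1 and 6.79 and 6.73 in clone 2 in cultures labelled Runx1Cbfb-KO, against 7.97 and 7.81 in clone 1 and 6.97 and 7.24 in clone 2 in Control cultures. Each set of Klf6 was below 0, between -0.52 and -0.13, and its difference was -0.30 ± 0.08 (limma adjusted p = 0.171). With array weights the same difference passed the test (limma adjusted p = 0.0472). Klf2 and Klf10 had differences of -0.10 ± 0.07 and 0.01 ± 0.07, and neither was called.

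Etv4 and Etv5 encode ETS factors that ERK signalling induces in many tissues. Etv5 had 4 of 4 sets above 0, between 0.07 and 0.12, with a difference of 0.09 ± 0.08, and Etv4 had per-set values between -0.23 and 0.16. The IER genes, small early response genes, all had fitted differences above 0, and none was called. Ier2 and Ier5 had 4 of 4 sets above 0, with Ier2 at 0.16 ± 0.07 (limma adjusted p = 0.783), and Ier3 was below 0 in both sets of clone 1 and above 0 in both sets of clone 2. Of the genes that act on mRNA decay, Zfp36l1 had 4 of 4 sets below 0 (-0.27 to -0.05), and Zfp36, which encodes tristetraprolin, had 3 of 4. Btg2, which recruits deadenylases, had values of 0.37 and 0.22 in the sets of replicate number 1 and -0.10 and -0.14 in those of replicate number 2.

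Of the feedback phosphatases, Dusp2, which encodes a nuclear phosphatase of MAP kinases, had the largest positive difference among the members. It was 7.09 and 7.43 in clone 1 and 7.76 and 8.31 in clone 2 in cultures labelled Runx1Cbfb-KO, against 6.95 and 7.14 in clone 1 and 7.49 and 7.90 in clone 2 in Control cultures. All 4 sets of Dusp2 were above 0, from 0.14 to 0.41, and the difference of 0.28 ± 0.07 did not pass the test (limma adjusted p = 0.156). Dusp6, which encodes a cytoplasmic phosphatase of ERK, had per-set values of -0.29 and -0.33 in clone 1 and 0.01 and 0.04 in clone 2. Dusp1, Dusp4 and Dusp5 had per-set values between -0.30 and 0.28, on both sides of 0 for each gene. Among the inhibitors upstream of ERK, Spred2 had 4 of 4 sets below 0, between -0.14 and -0.05, and Spry1, Spry2 and Spred1 had sets on both sides of 0. A second probe set of Spred2 gave a mean change of -0.01 and a second one of Etv5 gave 0.03.

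**Figure D1:**
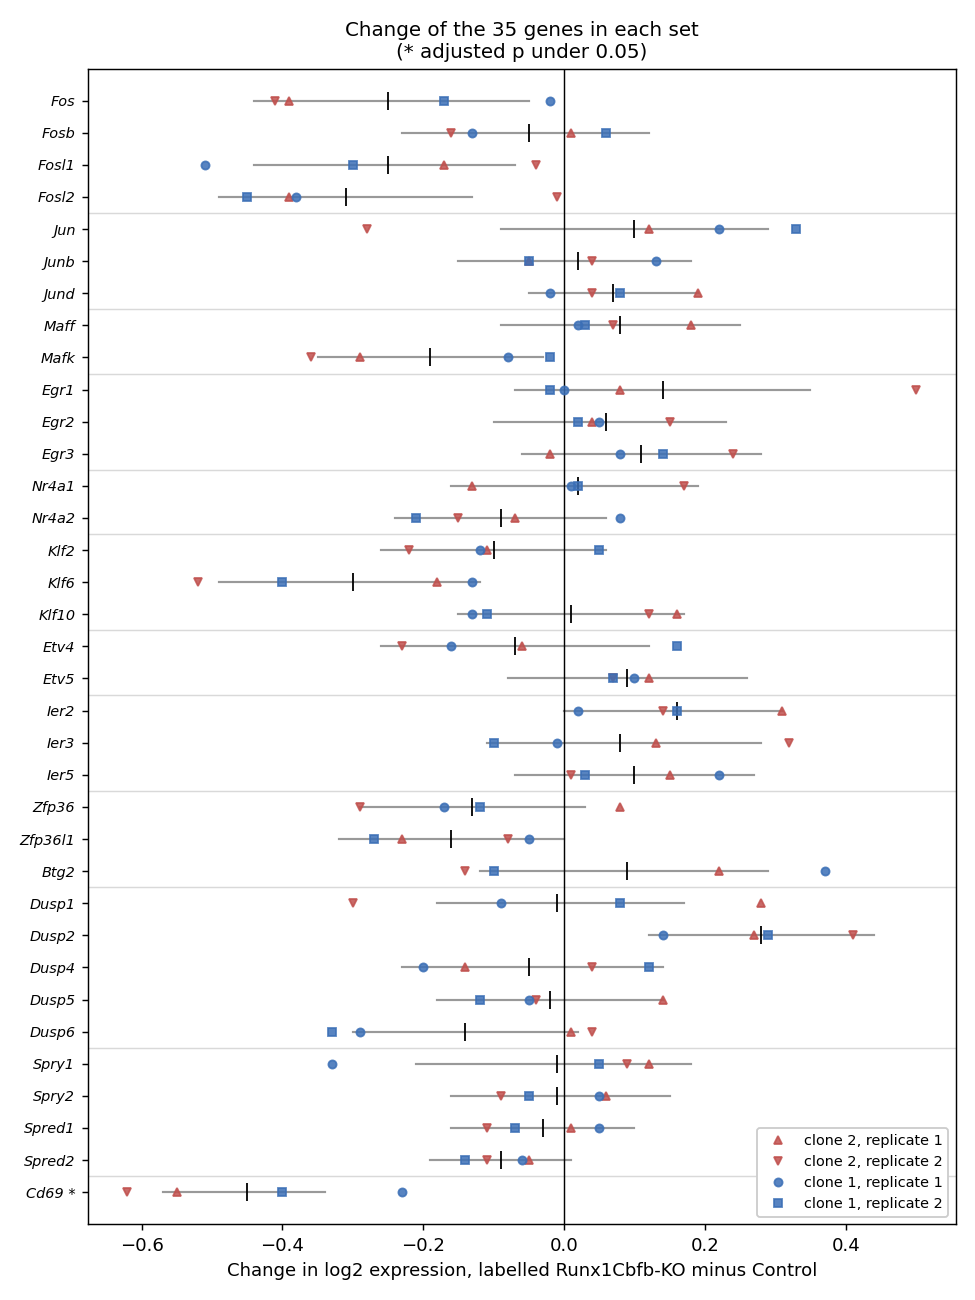
Change in log2 level, Runx1Cbfb-KO minus Control, of the 35 genes (rows, ordered by role). Markers are the 4 sets, the black tick is the fitted difference and the grey line its 95% interval, and the asterisk marks Cd69 (fitted difference -0.45), called at an adjusted p under 0.05; the other intervals are centred between -0.31 (Fosl2) and 0.28 (Dusp2).

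The plot of changes by set shows how much of the scatter lay between clones. In clone 1 alone, Cd69 was called lower by 0.32 ± 0.06 (limma adjusted p = 0.0369), and this was 1 of 35 members (2.86%) against 0.181% of all genes. Without clone 1 replicate 2 that value was -0.23 and the call was lost (limma adjusted p of Cd69 = 1). In clone 2 alone, Cd69 was again the 1 member called (2.86%, against 0.682% of all genes), at -0.59 ± 0.06 (limma adjusted p = 5.48e-05). This call was lost without a variance trend (limma adjusted p of Cd69 = 0.2) and with every probe set tested (0.347). The test of the change in clone 2 minus that in clone 1 gave -0.27 ± 0.08 for Cd69 (95% interval -0.45 to -0.10; limma adjusted p = 1), so a difference in response between the clones was not shown for Cd69.

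That test called 0 of 35 members in limma, against 0.0100% of all genes, and 3 members (8.57%) had an unadjusted p under 0.05, against 1.97%. These were Cd69, Jun (-0.36 ± 0.16) and Dusp6 (0.33 ± 0.13). Klf10, Ier3 and Dusp6 each had clone 1 sets below 0 and clone 2 sets above 0, and the test called none of them. The change in the sets of replicate number 2 minus that in the sets of replicate number 1 also called 0 members in limma, against 0.00% of all genes. By unadjusted p, 2 members (5.71%) were under 0.05, Klf6 (-0.30 ± 0.12) and Btg2 (-0.42 ± 0.13), against 18.0% of all genes. Without clone 1 replicate 2, which leaves 1 set of replicate number 2, the value of Jun in this comparison was -0.45, against -0.15 with all sets.

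The clones were then compared with each other within each group. Among cultures labelled Runx1Cbfb-KO, clone 2 was called higher in 6 members and lower in 1, and among Control cultures it was higher in 6 members and lower in 2. Fos, Zfp36, Etv5, Dusp5, Cd69 and Klf6 were called in both groups, each in the same direction, with Klf6 lower in clone 2 and the other 5 higher. Over all genes, 690 were called in both groups, and all 690 kept their direction as well. Fosl1 was called only among Runx1Cbfb-KO cultures and Etv4 and Fosl2 only among Control cultures, and the test of clone difference by group, which is that of the change by clone above, called none of them. The higher calls were 17.1% of the members, against 1.82% of all genes among Runx1Cbfb-KO cultures and 1.60% among Control cultures. The lower calls were 2.86% of the members against 3.43% of all genes among Runx1Cbfb-KO cultures, and 5.71% against 2.37% among Control cultures. With genes of mean under 6 left out, the calls among Runx1Cbfb-KO cultures were 10 of 31 members and 1079 of 12230 genes. Among Control cultures they were 9 of 31 members and 814 of 12230 genes.

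Fos was higher in clone 2 than in clone 1 by 0.68 ± 0.12 (1.60-fold; limma adjusted p = 0.00594) in cultures labelled Runx1Cbfb-KO and by 0.98 ± 0.12 (1.98-fold; limma adjusted p = 0.000646) in Control cultures. Both clone 2 cultures of Fos lay above both clone 1 cultures in each group, as the values given above show. Fosl1 was 7.41 and 7.68 in clone 2 and 6.60 and 6.81 in clone 1 in cultures labelled Runx1Cbfb-KO, and 7.58 and 7.72 in clone 2 and 7.11 and 7.11 in clone 1 in Control cultures. The clones did not overlap for Fosl1, and the difference was 0.84 ± 0.13 (limma adjusted p = 0.0044) in cultures labelled Runx1Cbfb-KO and 0.54 ± 0.13 (limma adjusted p = 0.057) in Control cultures. Fosl2 went the other way. It was 7.18 and 7.32 in clone 2 and 7.71 and 7.83 in clone 1 in cultures labelled Runx1Cbfb-KO, and 7.57 and 7.33 in clone 2 and 8.09 and 8.28 in clone 1 in Control cultures. The difference of Fosl2 was -0.52 ± 0.13 (limma adjusted p = 0.0504) in cultures labelled Runx1Cbfb-KO and -0.73 ± 0.13 (limma adjusted p = 0.01) in Control cultures.

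Klf6 was lower in clone 2 by 0.87 ± 0.16 on the log2 scale in cultures labelled Runx1Cbfb-KO (difference -0.87; limma adjusted p = 0.00996) and had a difference of -0.78 ± 0.16 in Control cultures (limma adjusted p = 0.0204). All 4 clone 2 arrays of Klf6 lay below all 4 clone 1 arrays. Etv5 was 7.10 and 7.18 in clone 2 and 6.62 and 6.41 in clone 1 in cultures labelled Runx1Cbfb-KO, and 6.98 and 7.11 in clone 2 and 6.52 and 6.35 in clone 1 in Control cultures. The Etv5 difference was 0.63 ± 0.13 (limma adjusted p = 0.018) in cultures labelled Runx1Cbfb-KO and 0.62 ± 0.13 (limma adjusted p = 0.0236) in Control cultures, and its other probe set gave 0.90 and 0.58 in the same order. Etv4 had a difference of 0.64 ± 0.17 (limma adjusted p = 0.0538) in cultures labelled Runx1Cbfb-KO and 0.79 ± 0.17 (limma adjusted p = 0.024) in Control cultures.

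Zfp36, whose promoter holds a CArG box, was 8.34 and 8.18 in clone 2 and 7.58 and 7.51 in clone 1 in cultures labelled Runx1Cbfb-KO, and 8.26 and 8.47 in clone 2 and 7.75 and 7.63 in clone 1 in Control cultures. Its difference was 0.71 ± 0.12 (limma adjusted p = 0.00676) in cultures labelled Runx1Cbfb-KO and 0.67 ± 0.12 (limma adjusted p = 0.0111) in Control cultures, and the clones did not overlap. Dusp5, with the pair of CArG boxes, encodes a nuclear phosphatase of ERK. It was 7.97 and 7.97 in clone 2 and 7.29 and 7.28 in clone 1 in cultures labelled Runx1Cbfb-KO, and 7.83 and 8.01 in clone 2 and 7.34 and 7.41 in clone 1 in Control cultures. The Dusp5 difference was 0.69 ± 0.11 (limma adjusted p = 0.00551) in cultures labelled Runx1Cbfb-KO and 0.55 ± 0.11 (limma adjusted p = 0.0231) in Control cultures. Egr2, the other member with a CArG box in the windows searched, had levels between 5.68 and 5.90 on all 8 arrays, and its clones overlapped. Cd69 was higher in clone 2 by 0.52 ± 0.07 (limma adjusted p = 0.00198) in cultures labelled Runx1Cbfb-KO and by 0.79 ± 0.07 (limma adjusted p = 0.000121) in Control cultures.

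**Figure D2:**
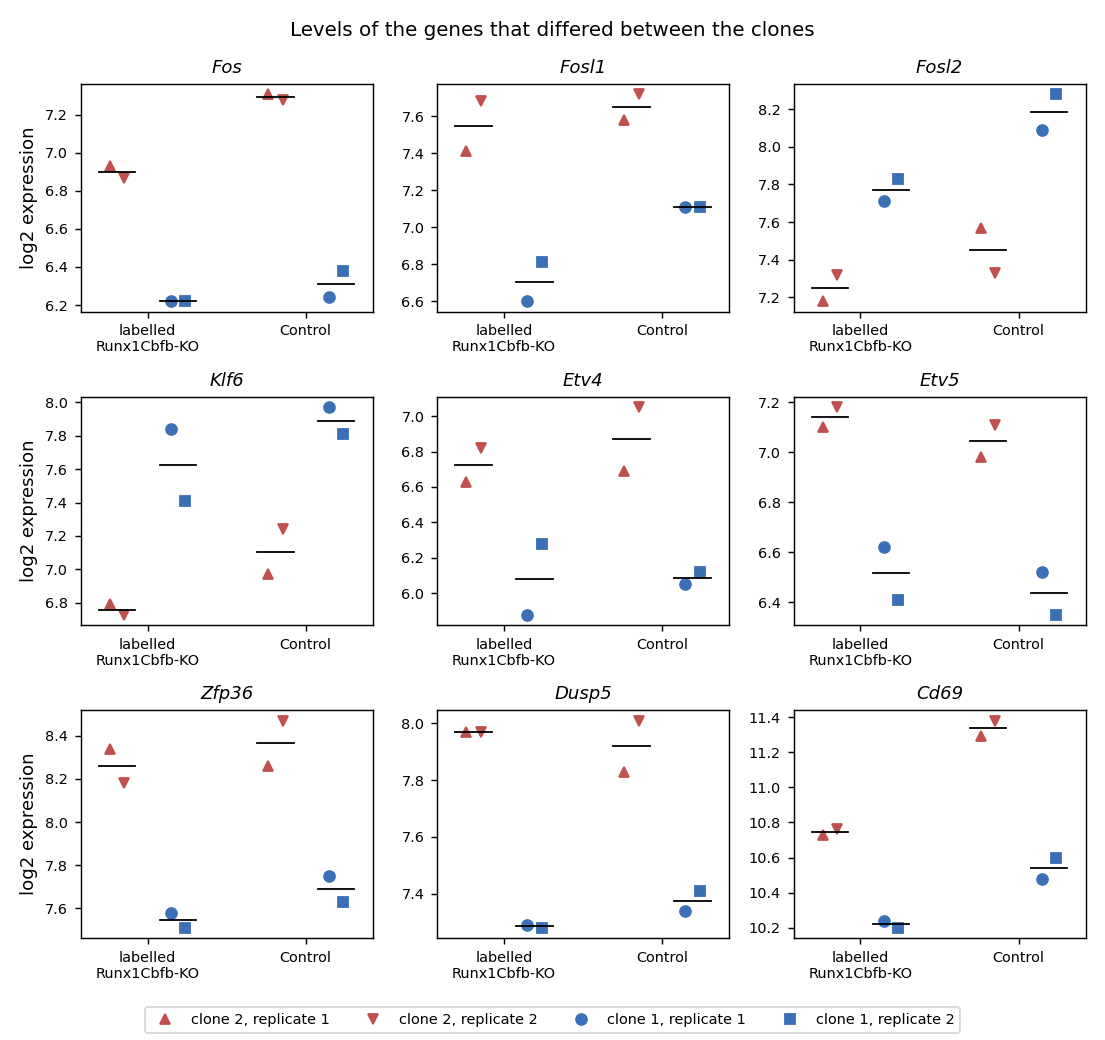
Deposited log2 level of the 9 genes called between clones in at least 1 group, with a point per culture and a bar at the mean of 2 cultures. Cultures labelled Runx1Cbfb-KO stand left of Control and clone 2 (red) left of clone 1 (blue); clone 2 lies above clone 1 except in Fosl2 and Klf6, where it lies below.

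The plot of levels by clone shows these 9 genes culture by culture. Over all 8 arrays, 19 of 35 members (54.3%) had clones that did not overlap, against 19.7% of all genes. Clone 2 lay above clone 1 in 16 of them and below it in Fosl2, Klf6 and Spred1, against 1838 genes above and 2086 below among all genes. The median clone difference of the members was 0.234 in cultures labelled Runx1Cbfb-KO and 0.124 in Control cultures, against 0.033 and 0.032 over all genes. These shares and medians were not compared with genes of matched level. Several genes had large differences that were not called. Fosb had a difference of 0.93 ± 0.30 in cultures labelled Runx1Cbfb-KO and of 0.97 ± 0.30 in Control cultures, with clone 2 replicates at 7.94 and 6.97 in cultures labelled Runx1Cbfb-KO and at 7.92 and 7.13 in Control cultures. Dusp2, at 0.77 ± 0.20 and 0.65 ± 0.20 in the same order, and Dusp1, at 0.51 ± 0.15 and 0.52 ± 0.15, were not called in either group. Dusp6 was at 0.73 ± 0.19 (limma adjusted p = 0.0504) in cultures labelled Runx1Cbfb-KO and at 0.40 ± 0.19 (limma adjusted p = 0.43) in Control cultures. With every probe set tested, only Fos and Cd69 remained called among the 8 in Control cultures, and leaving out clone 1 replicate 1 or clone 1 replicate 2 also left 2 calls there. Without clone 2 replicate 2 the count in Control cultures was 3. Over all genes the Control count was 385 without clone 1 replicate 1, 469 without clone 1 replicate 2 and 475 without clone 2 replicate 2, against 792 with all arrays. In cultures labelled Runx1Cbfb-KO, 1 call was made without clone 1 replicate 1, 3 without clone 1 replicate 2 and 11 without clone 2 replicate 1. The counts over all genes moved too, to 382, 791 and 1542 in the same order, against 1047 with all arrays.

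**Figure D3:**
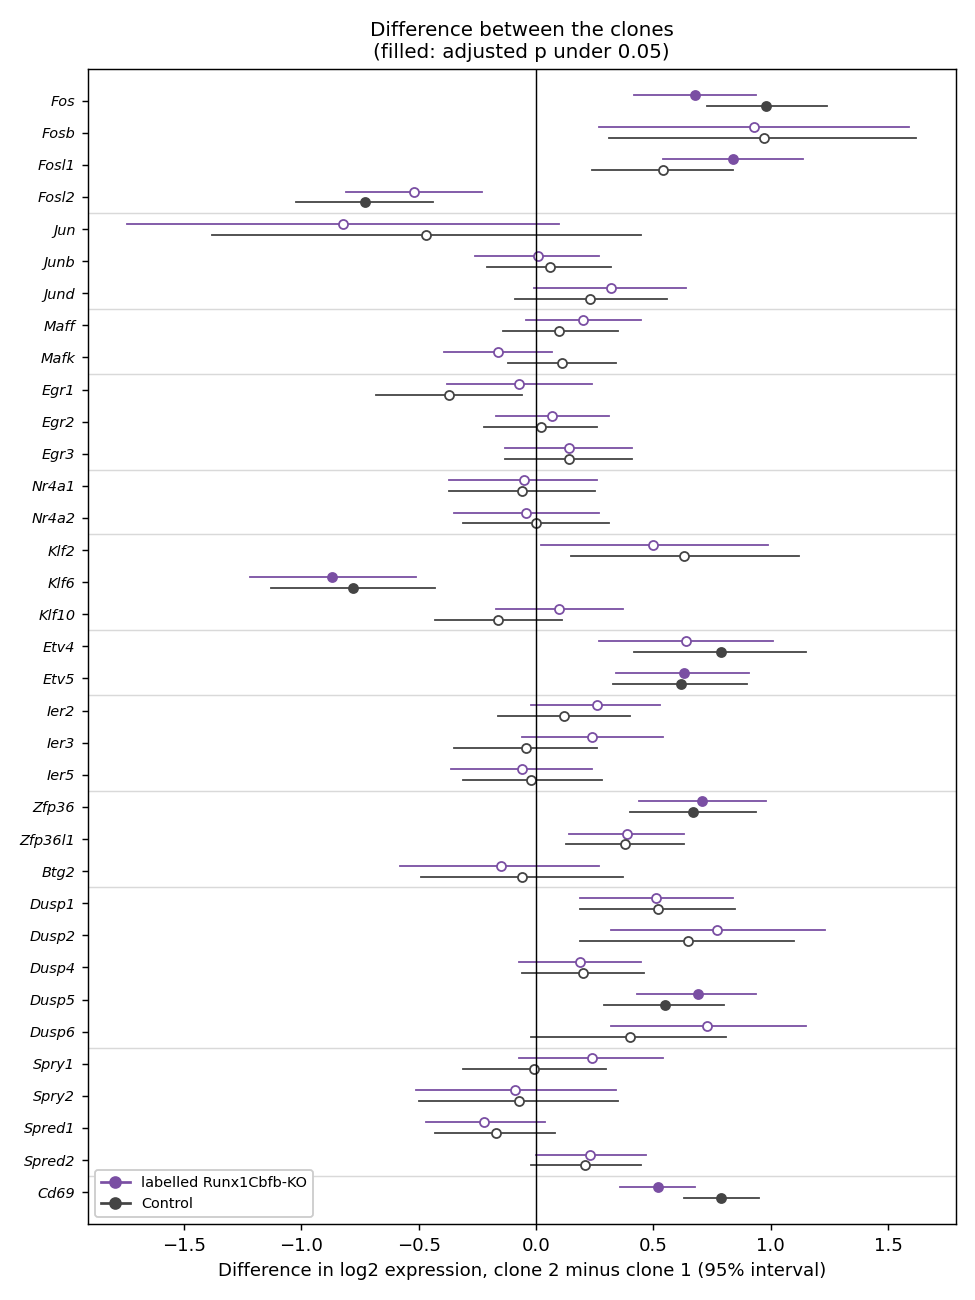
Clone 2 minus clone 1 in log2 level for the 35 genes, with 95% intervals, in cultures labelled Runx1Cbfb-KO (purple, above) and Control cultures (grey). Filled symbols were called at an adjusted p under 0.05; the called differences run from -0.87 (Klf6, Runx1Cbfb-KO) to 0.98 (Fos, Control).

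Replicate numbers were compared next. Jun was 8.23 and 7.46 in replicate 2 of clones 1 and 2 and 9.24 and 8.36 in replicate 1 of those clones in cultures labelled Runx1Cbfb-KO, and 7.90 and 7.75 in replicate 2 and 9.02 and 8.24 in replicate 1 in Control cultures. On the means of the 2 arrays of each set, Jun differed by -0.88 ± 0.10 (replicate number 2 minus 1; limma adjusted p = 0.0663). Each replicate 2 array of Jun lay below the replicate 1 array of its clone and group. This comparison called 0 of 35 members in limma, against 0.0351% of all genes, and 8 members (22.9%) had an unadjusted p under 0.05, against 15.5%. The values, none of which passed the adjusted test, were 0.38 for Dusp2, 0.34 for Spry2, 0.32 for Klf2 and 0.25 for Etv4, and below 0 for Jun, Fosb (-0.46), Btg2 (-0.27) and Jund (-0.23). For Klf2 and Fosb most of the value came from clone 2. The Klf2 set means were 8.24 for replicate 2 and 7.64 for replicate 1 in clone 2, and 7.39 and 7.35 in clone 1. The Fosb set means were 7.05 for replicate 2 and 7.93 for replicate 1 in clone 2, and 6.52 and 6.57 in clone 1. Jun passed the test with robust moderation (limma adjusted p = 0.0393) and with genes of low mean left out (limma adjusted p = 0.0149).

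The signalling genes upstream were then examined as lists. Of 25 genes of the RAS to ERK cascade, 18 were measured, and 0 rose or fell in limma after 4OHT. Sos2, an exchange factor that loads RAS with GTP, had the smallest p there, at -0.12 ± 0.05 (limma adjusted p = 0.703). Of 13 genes of the JNK and p38 cascades, 11 were measured and 0 were called, with Map2k6, a kinase that activates p38, at 0.25 ± 0.07 (limma adjusted p = 0.227). All 12 genes of SRF, its partners and the CREB factors were measured and 0 were called, with Elk3, an ETS partner of SRF, at 0.22 ± 0.05 (limma adjusted p = 0.0762). Of 39 other early and feedback genes 0 were called, with Gadd45b, a stress gene of the JNK and p38 pathways, at -0.13 ± 0.04 (limma adjusted p = 0.374). By unadjusted p under 0.05, these 4 lists held 1, 2, 1 and 5 genes, against 6.47% of all genes. Called genes were 0.953% of all genes between the groups, so lists of this size would hold few or none at that share. Between the clones, the first 3 lists held 0 calls in limma in either group. Of all genes, clone 2 was called higher in 1.82% and lower in 3.43% among Runx1Cbfb-KO cultures, and in 1.60% and 2.37% among Control cultures. Among the other early genes clone 2 was higher in Sik1 (0.73 in cultures labelled Runx1Cbfb-KO and 0.75 in Control cultures) and lower in Dusp7 (-0.52 and -0.36 in the same order), both named after their values were seen.

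Heat shock genes, which encode chaperones and respond quickly to stress, were read as a further list. Of 12 heat shock genes 10 were measured and 0 were called between the groups or the clones in limma. Bag3, a cochaperone, had the smallest p between the groups, at -0.15 ± 0.05 (limma adjusted p = 0.451), and was the 1 gene of the list with an unadjusted p under 0.05. The mean level of the list ran from 10.06 to 10.13 in arrays labelled Runx1Cbfb-KO and from 10.07 to 10.15 in Control arrays.

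Of the myeloid progenitor markers, Elane, a neutrophil granule protease, had the highest signal, at 13.31 ± 0.04 in arrays labelled Runx1Cbfb-KO and 13.33 ± 0.02 in Control arrays (SD, n = 4 each). All 8 were measured. Of all genes 0.471% were called lower, and of these 8 markers 4 fell in limma in cultures labelled Runx1Cbfb-KO. They were Cebpa, a granulocyte differentiation factor (-0.66 ± 0.08; limma adjusted p = 0.00128), Kit, the stem cell factor receptor (-0.36 ± 0.05; limma adjusted p = 0.00404), Prtn3 (-0.15 ± 0.03; limma adjusted p = 0.0267) and Spi1 (-0.14 ± 0.03; limma adjusted p = 0.0465). The mean level of the list ran from 10.89 to 11.58 in arrays labelled Runx1Cbfb-KO and from 11.04 to 11.80 in Control arrays. These genes fell in the cultures in which Cd69 fell, and their part in the Cd69 result was not tested. The lists of monocyte and macrophage (7 of 8 measured), T and NK cell (8 of 9), B cell (5 of 6), erythroid (4 of 6), mast, basophil and eosinophil (8 of 8) and stromal markers (5 of 5) held 0 calls between the groups in limma. Adgre1, in the monocyte list, and Mcpt8, in the mast and basophil list, were the 2 of these with an unadjusted p under 0.05, at 0.28 ± 0.09 and -0.24 ± 0.07, and each was also the brightest of its list. In the other 4 lists the smallest p belonged to Cd3g (0.13 ± 0.07), Cd79a (0.08 ± 0.06), Gata1 (0.03 ± 0.08) and Col1a2 (0.05 ± 0.10), none with an unadjusted p under 0.05. Their brightest genes were Cd3e, at 6.02 ± 0.16 in arrays labelled Runx1Cbfb-KO and 6.03 ± 0.13 in Control arrays, Cd79b (7.95 ± 1.84 and 7.96 ± 1.74), Klf1 (6.41 ± 0.06 and 6.42 ± 0.10) and Col1a1 (7.33 ± 0.23 and 7.34 ± 0.13). The mean level of the T and NK list, whose cells use CD69 as an activation marker, ran from 4.98 to 5.22 in arrays labelled Runx1Cbfb-KO and from 5.06 to 5.16 in Control arrays. No detection calls come with these values, so absence of a marker could not be read from them.

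Some marker genes differed between the clones beside the early genes. The mean level of the progenitor list ran from 11.57 to 11.80 over the 4 clone 2 arrays and from 10.89 to 11.16 over the 4 clone 1 arrays, and the median clone difference of its 8 genes was 0.09 in cultures labelled Runx1Cbfb-KO and 0.10 in Control cultures. Cd34 makes up the gap in that mean. The monocyte list ran from 6.60 to 6.71 over clone 2 arrays and from 6.26 to 6.37 over clone 1 arrays, with medians of 0.13 and 0.49 for the clone difference in cultures labelled Runx1Cbfb-KO and in Control cultures. The B cell list ran from 5.67 to 5.96 over clone 2 arrays and from 5.01 to 5.14 over clone 1 arrays. Most of that gap is Cd79b, and the medians of the list's clone difference were 0.15 in cultures labelled Runx1Cbfb-KO and 0.21 in Control cultures. The mast, basophil and eosinophil list ran from 5.32 to 5.55 over clone 2 arrays and from 5.56 to 5.65 over clone 1 arrays, with medians of 0.05 and 0.03 in the same groups. Clone 2 minus clone 1 was 5.66 for Cd34 in cultures labelled Runx1Cbfb-KO and 5.48 in Control cultures, and the lower progenitor gene was Cebpa, at -1.06 and -0.70. Of the monocyte markers, Fcgr1 (2.06 and 1.89) and Csf1r (0.95 and 0.70) were higher in clone 2 and Adgre1 (-1.37 and -1.23) was lower. Cd79b of the B cell list was higher in clone 2 (3.18 and 2.99) and Ms4a2 of the mast and basophil list was lower (-1.23 and -0.96). Each was called in both groups and was named after its values were seen. The part of these differences in the clone differences of Fos, Klf6 and the other early genes was not tested. In bulk cultures, fewer cells of a type and less RNA per cell cannot be told apart.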

How the data were processed

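RNA of 8 cultures was measured on whole-transcript arrays. The deposited values are log2 expression levels of 35556 probe sets, made with RMA per the submitters' processing notes (background correction, quantile normalization and median polish); its version is not given in the sources used here, nor is the chip definition. Values ran from 2.60 to 13.77, and the log base was read from them. The platform annotation gave 21789 probe sets a single symbol, and 1621 with several and 12146 not listed were left out. For 999 genes with several probe sets the one with the highest mean was used. Entrez identifiers were checked against RefSeq, which changed 0 symbols and left 91 unmatched.

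Fits used limma 3.58.1 (R 4.3.3), lmFit and eBayes with a variance trend, two-sided, with Benjamini-Hochberg adjustment over 19938 genes at 0.05. The Runx1Cbfb-KO against Control fit had the set as a block (3 residual degrees of freedom, 9.72 prior). Effects per clone and their difference used the same block (2). Clone differences came from a fit of the 4 clone and group cells without a block (4), so their SE is shared by both groups. Replicate numbers were compared on set means (1). The pairing comes from the titles: arrays of a set deviated together from their group means (correlations 0.72 to 0.82, best with the own set in 4 of 4). These deviations include the clone difference, so the size of the correlations does not show pairing by replicate number. The number of arrays limits the precision. The scripts were tested on simulated data.

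Alternatives changed the block, variance trend, moderation, array weights, scaling, probe set choice, low-level filter (mean under 6) and the arrays included. The members and lists were chosen with earlier results of these data known. All 35 members could be named; of each list, genes past the threshold (at most 4 a direction), or else the smallest p, and each cell type list's brightest gene. Of 151 list genes, 135 were measured. Genome positions other than those of the promoter windows were not analysed here.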

Additional observations from a re-analysis of the deposited data

Results flagged for a closer look

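In 105 groups of 4 values (level per group and change per set of each gene), 2 had a value far from the other 3. A rate of 0.05 gives about 5.2 if the 4 values are interchangeable. Each group holds 2 clones, so 5.2 is only a rough guide. Klf10, a KLF factor, was 8.11 in clone 2 replicate 1 of the cultures labelled Runx1Cbfb-KO, and the other 3 lay between 7.89 and 7.91. Spry1, an inhibitor of receptor tyrosine kinase signalling, had a change of -0.33 in the clone 1 replicate 1 set, while the other 3 sets lay between 0.05 and 0.12.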

How the results depend on the processing

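Counts of members called moved with the processing. Without the replicate block, that is without the paired sets, the Runx1Cbfb-KO against Control comparison called 0 members (1 with an unadjusted p under 0.05) in place of 1. It called 0 without the variance trend (9 unadjusted) and 0 with every probe set tested (7 unadjusted), 3 with array weights, 2 in the sets of replicate number 1 alone, 2 in those of replicate number 2 alone, and 1 to 3 when a set was left out. Over all genes the 190 calls became 0 without the block, 13 without the trend, 0 with every probe set, 388 with array weights, 620 and 443 in the sets of replicate numbers 1 and 2, and 98 to 418 with a set left out. In clone 1 the count of 1 became 0 without the replicate block (3 unadjusted), without the trend (6), with median centring (5) and with every probe set (4). Over all genes the 36 calls of clone 1 became 1, 0, 59 and 0 in the same order. In clone 2 the count of 1 became 0 without the trend (8) and with every probe set (5). Over all genes the 136 calls of clone 2 became 3 and 0. Leaving out a set left 1 set in a clone. Over all alternatives the Cd69 value ran from -0.40 to -0.23 in clone 1 and from -0.62 to -0.55 in clone 2. The clone test of the change called 0 members under every alternative run. The replicate number test of the change called 0 members under every alternative with all 8 arrays, and 0 to 316 of all genes.

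The clone difference among Runx1Cbfb-KO cultures called 11 members with median centring and 11 with the set as a random replicate block, in place of 7, and 1 to 11 with a culture left out; over all genes, 972, 1137 and 382 to 1542 in place of 1047. Among Control cultures it called 13 with array weights and 2 with every probe set tested, in place of 8, and 2 to 8 with a culture left out; over all genes, 1599, 477 (probe sets) and 385 to 588 in place of 792. The comparison of replicate numbers on set means called 1 with robust moderation, 2 with median centring and 1 with genes of mean under 6 left out, in place of 0. Over all genes the calls were 15, 309 and 27 in the same order, in place of 7. A culture left alone in its cell is assumed to vary like the other groups. No called value changed sign, and in the Runx1Cbfb-KO against Control comparison 33 values of uncalled members did. With every probe set tested, adjustment runs over more features; the causes of the other moves were not tested.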
